A study of Mus musculus with 9 samples.

Results

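The enzymes and carriers of cholesterol synthesis, the enzymes of fatty acid synthesis and the regulators that set both were followed in intestinal epithelial cells of newborn mice. Of 36 genes listed, 35 were measured among 18193 genes in all: 18 of the sterol branch, 12 of the fatty acid branch and 5 regulators. Each gene was read from its brightest probe set, by the mean of all 9 arrays, among those annotated with no symbol but its own. Acat2 had no probe set of that kind and was not analysed here. Cells came from pups on postnatal day 0, from small intestine together with proximal colon, with 3 arrays for each of 3 genotypes. Control pups were Tfr1fl/fl, which have floxed alleles of the transferrin receptor gene Tfrc. Knockout pups were Tfr1 IEC-KO, with the receptor deleted in intestinal epithelium. Rescue pups were Tfr1 IEC-KO;ROSA26 Tfr1R654A/+, and so carried the same deletion together with a single added copy of a receptor with the R654A change, which is known to impair the binding of transferrin, at the ROSA26 locus. No group was treated with any agent. The sources used here do not give the Cre line behind the deletion, the sex of the pups or how many pups an array holds. What the p-values measure is then the spread between these arrays, which may be technical.

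Cholesterol is made from acetyl-CoA by way of mevalonate, farnesyl pyrophosphate and squalene, and squalene is closed to lanosterol and then trimmed, reduced and isomerised to cholesterol. Fatty acids start from the same acetyl-CoA, which is carboxylated, built into palmitate by fatty acid synthase, then lengthened by elongases and given double bonds by desaturases. Transcription of both branches is driven by the SREBP factors encoded by Srebf1 and Srebf2, which the escort protein Scap carries out of the endoplasmic reticulum when sterols are scarce and which Insig1 and Insig2 hold back when sterols are plentiful. Enterocytes make cholesterol and fatty acids themselves besides absorbing them from milk, and the transferrin receptor takes up iron, which several of these enzymes need at their active site.

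Values are deposited log2 RMA values, in which a step of 1 is a doubling of signal, and differences are given as log2 changes with limma's standard error from 3 arrays a group. A gene is called when its Benjamini-Hochberg adjusted p-value, taken over the 18193 genes tested, lies under 0.05. Arrays of the same group correlated across genes, which are not independent replicates, with r of 0.994 to 0.996 in control, 0.951 to 0.985 in knockout and 0.987 to 0.990 in rescue. The epithelial marker Epcam had a mean of 12.95 in control, 13.36 in knockout and 13.13 in rescue, and all 8 epithelial markers had group means of at least 10.45. These markers did not move together: 4 of the 8 were called higher and 1 lower in knockout than in control. Krt19 had a mean of 10.45 in control and 12.10 in knockout, and Cdx2 of 11.44 and 10.69. Of 7 measured enterocyte markers 0 were called higher and 1 lower in knockout. Knockout replicates 1 and 2 stood apart through transcripts of the intestinal wall: the median of 14 fibroblast markers lay 3.80 and 3.06 above the control mean in them, 0.26 above it in knockout replicate 3, and 0.39 to 0.92 above it in the rescue arrays. For 7 smooth muscle markers the same measure was 4.13, 2.92 and 0.17 in knockout replicates 1, 2 and 3. The X-inactivation transcript Xist read 12.02 to 12.75 in control and knockout arrays and 6.45 to 6.83 in rescue arrays, while the Y-linked Eif2s3y read at most 2.88 in control and knockout arrays and at least 9.36 in rescue arrays. The sex-linked signal and the rescue genotype therefore cannot be told apart. Tfrc itself has 3 probe sets, whose place relative to the deleted exons is not known here. The brightest read 9.88 to 10.78 in control, 9.07 to 11.16 in knockout and 10.22 to 11.11 in rescue arrays, with all groups overlapping. Another read 6.06 to 6.29 in control, 5.57 to 6.14 in knockout and 10.74 to 10.91 in rescue arrays, and the last 4.56 to 4.72, 4.09 to 4.46 and 8.65 to 9.07. Both of these were far higher in every rescue array than in any other array. Knockout and control overlapped in the former, and in the latter the knockout arrays lay just below the control arrays.

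Because several of these genes were lower together in knockout, their promoters were read from the RefSeq promoter table (GRCm38.p6). The 250 bases before a transcription start were available for 28 of the 35 measured genes. The first windows below are those of Mvd and Nsdhl, which had the smallest p among sterol genes in knockout. The next is that of Lss, which in its brightest probe set was lower in knockout and near the control level in rescue. The last are those of Elovl6, which was called in both knockout comparisons, and of Hmgcs1, a sterol enzyme that was not called. Capitals mark the box CCAAT of the factor NF-Y, or its reverse complement, and the sterol regulatory element TCACNCCAC, to which SREBP factors bind.
Mvd: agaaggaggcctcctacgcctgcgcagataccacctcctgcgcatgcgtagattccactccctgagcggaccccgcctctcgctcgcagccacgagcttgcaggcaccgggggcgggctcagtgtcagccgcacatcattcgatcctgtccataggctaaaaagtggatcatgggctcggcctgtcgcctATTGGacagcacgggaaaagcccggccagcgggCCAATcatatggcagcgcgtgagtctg
Nsdhl: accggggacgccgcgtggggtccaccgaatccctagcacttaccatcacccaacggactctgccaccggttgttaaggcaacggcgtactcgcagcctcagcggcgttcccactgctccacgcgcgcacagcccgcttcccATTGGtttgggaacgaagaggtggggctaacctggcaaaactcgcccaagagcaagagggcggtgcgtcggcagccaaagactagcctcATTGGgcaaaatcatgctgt
Lss: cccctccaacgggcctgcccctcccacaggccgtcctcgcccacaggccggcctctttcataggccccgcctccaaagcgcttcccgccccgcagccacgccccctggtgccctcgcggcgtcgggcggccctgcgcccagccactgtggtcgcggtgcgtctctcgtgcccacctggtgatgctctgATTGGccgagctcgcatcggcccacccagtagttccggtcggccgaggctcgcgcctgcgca
Elovl6: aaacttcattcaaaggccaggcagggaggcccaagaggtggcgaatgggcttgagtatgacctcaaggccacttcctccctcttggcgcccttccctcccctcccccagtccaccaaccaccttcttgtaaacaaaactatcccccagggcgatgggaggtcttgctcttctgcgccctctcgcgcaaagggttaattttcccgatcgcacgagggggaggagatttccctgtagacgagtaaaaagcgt
Hmgcs1: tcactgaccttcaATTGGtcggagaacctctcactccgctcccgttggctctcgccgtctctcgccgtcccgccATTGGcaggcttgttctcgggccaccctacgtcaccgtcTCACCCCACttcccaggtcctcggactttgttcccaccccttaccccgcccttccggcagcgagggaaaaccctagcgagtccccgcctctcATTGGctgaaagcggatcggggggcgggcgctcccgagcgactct
The windows lie at chr8:122443423-122443672 on the minus strand for Mvd, and on the plus strand at chrX:72918271-72918520 for Nsdhl, chr10:76531355-76531604 for Lss, chr3:129532136-129532385 for Elovl6 and chr13:119690101-119690350 for Hmgcs1. Each runs 5′ to 3′ towards the start of its gene.

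Searched on both strands, CCAAT was found in 23 of the 28 genes (82.1%), against 37.5% of all 27025 genes with a window. A gene was counted when any of its windows held the motif. The 28 genes had 38 windows and all 27025 genes had 32851, and the shares were not corrected for this. The Sp1 box GGGCGG was found in 22 of 28 (78.6%), against 35.4% of all genes, and the E-box CACGTG in 6 of 28 (21.4%), against 6.86%. The element TCACNCCAC was found in Hmgcs1, 129 bases before its start, and in the window of no other member (3.57% of the members, against 1.22% of all genes). Of the genes lower in knockout, 7 of 8 with a window held CCAAT, as did 16 of the 20 that were not called. The Sp1 box was in 6 of these 8 and in 16 of these 20. The E-box was in 1 of these 8 and in 5 of these 20, and no difference between called and uncalled genes was tested. The Elovl6 window held none of the 4 motifs. The 4 motifs matched 104 times in the members' windows, with 1 overlap between different motifs, and a match is a description of the letters and no evidence of binding. Only these exact letters were searched, so the lack of a match is no evidence that a site is absent. Fdps, Fdft1, Sqle, Stard4, Scd1, Scd2 and Fads1 had no window and were not searched.

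Between knockout and control, 9 of the 35 genes were lower and 0 were higher, and the genes of sterol synthesis made up most of the 9. Of all 18193 genes, 14.1% were called in this comparison (8.77% lower and 5.29% higher). In the sterol branch 7 of 18 were lower, namely Pmvk, Mvd, Lss, Nsdhl, Ebp, Dhcr7 and Stard4, by 1.38-fold to 1.86-fold. The median change of the branch was -0.46, with 16 of 18 estimates below 0, against a median of -0.04 over all genes. All 3 knockout arrays lay below all 3 control arrays for 10 of the 18 genes. Among all genes the arrays of these groups did not overlap for 32.4%, with knockout below control for 19.7%. Of the 18, 10 had an unadjusted p under 0.05 in limma's test. The share of all genes under that value was not counted, so such counts, here and below, have no background beside them. In this comparison that share cannot be under the 14.1% called after adjustment. In bulk samples fewer cells of a type and less RNA per cell cannot be told apart.

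**Figure D1:**
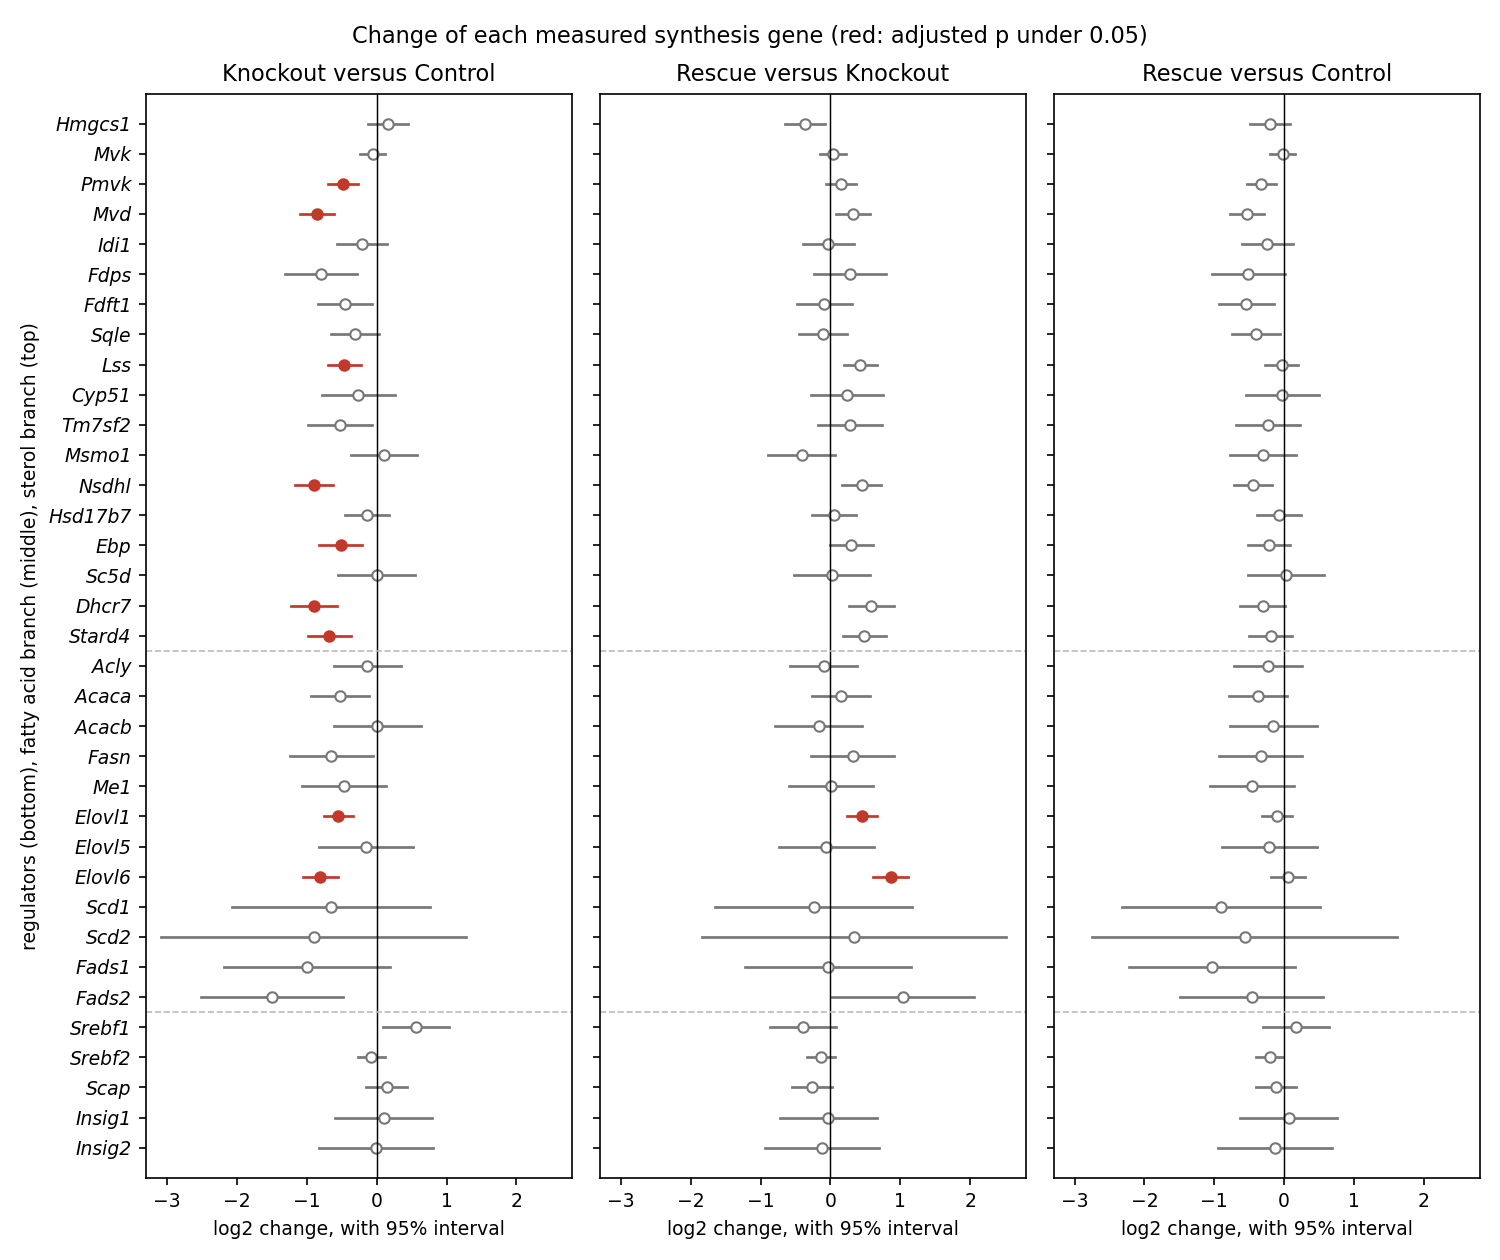
Log2 change of each of the 35 measured genes (rows) in the 3 comparisons (panels), with the 95% interval of the limma fit; filled red points passed an adjusted p of 0.05. The 9 red points of the left panel lie between -0.90 and -0.46, the middle panel has 2 (Elovl1 and Elovl6) and the right panel none; the desaturases Scd1, Scd2, Fads1 and Fads2 have the widest intervals.

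The early steps lead from acetyl-CoA to the isoprenoid units, and 2 of their 6 enzymes were lower in knockout. Mvd, the decarboxylase that makes isopentenyl pyrophosphate, read 8.45, 8.52 and 8.73 in control, against 7.61, 7.74 and 7.81 in knockout and 8.02, 7.99 and 8.12 in rescue. The 3 groups did not overlap, with rescue between control and knockout. Its change in knockout was -0.85 ± 0.11, or 1.80-fold lower (limma, adjusted p = 0.0024), and its other probe set gave -0.95. Pmvk, which phosphorylates mevalonate phosphate in the step before, read 7.84, 7.87 and 7.83 in control, against 7.33, 7.26 and 7.50 in knockout and 7.47, 7.49 and 7.60 in rescue. Every knockout and rescue array of Pmvk lay below the control arrays, and the change in knockout was -0.48 ± 0.09, or 1.40-fold lower (adjusted p = 0.0133). The call for Pmvk was lost when any of the 3 control replicates was left out (adjusted p = 0.0515, 0.0544 and 0.0579 without replicates 1, 2 and 3).

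The other 4 enzymes of these steps did not pass. Hmgcs1, the synthase at the head of the pathway and a well-known SREBP target, read 10.92, 10.72 and 10.92 in control and 11.15, 11.06 and 10.84 in knockout. Its groups overlapped and its change was 0.16 ± 0.12, with a 95% interval of -0.12 to 0.44. The estimates were -0.06 ± 0.08 for Mvk, the mevalonate kinase, and -0.21 ± 0.16 for Idi1, which isomerises isopentenyl pyrophosphate. Fdps, which joins the isoprenoid units to farnesyl pyrophosphate, lay just outside the threshold: it read 9.19, 9.52 and 9.46 in control, against 8.85, 8.47 and 8.46 in knockout and 9.41, 8.65 and 8.57 in rescue, a change in knockout of -0.80 ± 0.23 (adjusted p = 0.0518). The knockout arrays of Fdps all lay below the control arrays, while rescue replicate 1 lay among the control arrays and the other rescue arrays near the knockout, and the gene was called lower in 5 of the 19 alternatives.

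From farnesyl pyrophosphate through squalene to cholesterol, 4 of 11 enzymes were lower in knockout. Nsdhl, a dehydrogenase that helps remove methyl groups from the sterol ring, read 9.49, 9.71 and 9.84 in control, against 8.77, 8.66 and 8.92 in knockout and 9.22, 9.33 and 9.15 in rescue. The groups did not overlap, and the change in knockout was -0.89 ± 0.12, or 1.86-fold lower (limma, adjusted p = 0.0031). Dhcr7, the reductase of the last step of the Kandutsch-Russell route, read 9.45, 9.30 and 9.46 in control, against 8.78, 8.25 and 8.48 in knockout and 9.23, 9.04 and 9.00 in rescue. Its change in knockout was -0.90 ± 0.14, or 1.86-fold lower (adjusted p = 0.0061), with rescue again between the other groups. Together with Mvd, these genes were lower in knockout in every one of the 19 alternative settings run.

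Lss, the cyclase that closes squalene epoxide to lanosterol, read 8.86, 8.93 and 8.77 in control, against 8.27, 8.46 and 8.42 in knockout and 8.84, 8.93 and 8.68 in rescue. Rescue and control arrays of Lss overlapped and the knockout arrays lay below both. The change in knockout was -0.46 ± 0.10, or 1.38-fold lower (limma, adjusted p = 0.0222). Its other probe sets gave -0.30 and -0.84, neither of which passed. The call was lost without control replicate 1, 2 or 3 (adjusted p = 0.0766, 0.0879 and 0.0614) and without knockout replicate 1 (0.0652). Ebp, the isomerase that moves a ring double bond, read 10.20, 10.45 and 10.41 in control, against 9.70, 9.71 and 10.09 in knockout and 10.19, 10.02 and 10.20 in rescue. Knockout replicate 3 was the closest of the knockout arrays to the control arrays, and the change of -0.52 ± 0.13, or 1.43-fold lower (adjusted p = 0.0370), had the largest adjusted p of the 9. That call held in 1 of the 9 fits that left out an array, the fit without knockout replicate 3, and reached an adjusted p of 0.126 in the others. Nsdhl and Ebp are X-linked, and the rescue arrays differ from the others in sex-linked signal, as given above.

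The remaining 7 enzymes of these steps did not pass. The estimates were -0.45 ± 0.17 (adjusted p = 0.11) for the squalene synthase Fdft1 and -0.52 ± 0.20 (0.12) for the reductase Tm7sf2, each with all knockout arrays below all control arrays. Those of the epoxidase Sqle and of the lanosterol demethylase Cyp51 were -0.31 ± 0.15 and -0.26 ± 0.23. Hsd17b7, a partner of Nsdhl in the removal of methyl groups, stood at -0.13 ± 0.14. Msmo1 and Sc5d, oxidases with iron at the active site, stood at 0.11 ± 0.21 and -0.00 ± 0.24. Both read highest of the 9 arrays in knockout replicate 3, at 10.34 and 10.35. Stard4, a carrier of cholesterol through the cytosol and no enzyme, was lower in knockout: it read 10.33, 10.26 and 10.11 in control, against 9.36, 9.73 and 9.57 in knockout and 10.25, 9.98 and 9.90 in rescue. The knockout arrays of Stard4 lay below all others, with a change of -0.68 ± 0.13, or 1.60-fold lower (limma, adjusted p = 0.0141), a call lost without control replicate 1 or 2 (0.0605 and 0.0546).

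The count of 7 sterol genes was itself moved by the control arrays: 3 were called without control replicate 1, 3 without control replicate 2 and 4 without control replicate 3, against 5, 6 and 7 without knockout replicates 1, 2 and 3. Calls over all genes moved as well, from 14.1% to 6.06%, 6.66% and 5.14% without control replicates 1, 2 and 3, and to 8.95%, 10.9% and 27.5% without knockout replicates 1, 2 and 3. With the mean of the fibroblast markers of each array as a covariate 4 were called, Dhcr7, Mvd, Nsdhl and Sqle, the last of which was called in this comparison under no other setting run. Over all genes 11% were called with this covariate. Its value was 6.70 to 7.27 in control, 10.36, 9.96 and 7.35 in knockout replicates 1, 2 and 3, and 7.49 to 8.03 in rescue. Changes in knockout fitted with it rest largely on knockout replicate 3, the knockout array nearest to control in this value. The summed linear level of the fibroblast markers was 2525 to 3542 in control, 34856, 27496 and 4109 in knockout replicates 1, 2 and 3, and 4051 to 6856 in rescue, and 3 of the 14 markers were called higher in knockout. Relative to the control mean, the median sterol gene lay at -0.35, -0.46 and -0.49 in knockout replicates 1, 2 and 3. The part that RNA of other cells has in the sterol changes was not tested.

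**Figure D2:**
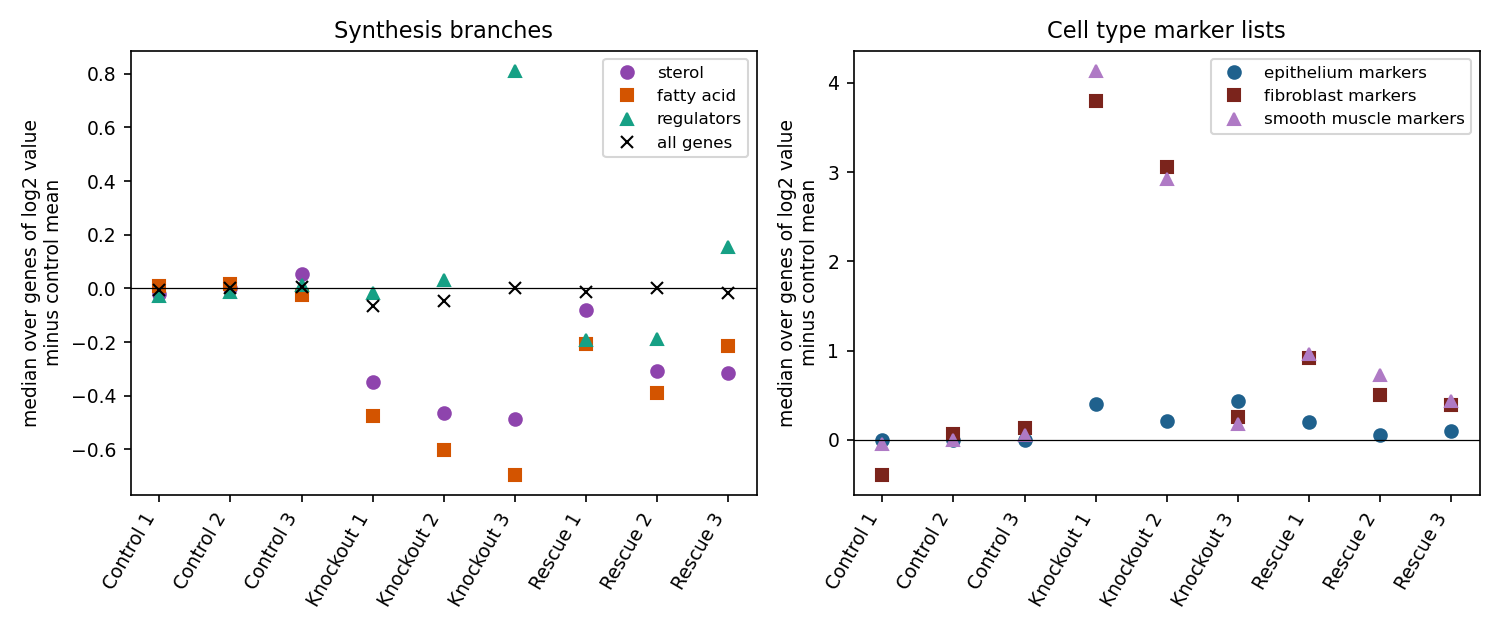
For each of the 9 arrays, the median over genes of the log2 value minus the control mean, for the synthesis branches, the regulators and all genes (left) and for 3 marker lists (right). The sterol branch lies at -0.35, -0.46 and -0.49 and the fatty acid branch at -0.48, -0.60 and -0.69 in knockout replicates 1, 2 and 3, while the fibroblast markers lie at 3.80, 3.06 and 0.26 in the same arrays.

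In the fatty acid branch 2 of 12 genes were lower in knockout and 0 were higher, and both were elongases. That share is near the 14.1% of all genes called in this comparison. The median change of the branch was -0.60, with 11 of 12 estimates below 0, and 5 of the 12 had knockout arrays entirely below the control arrays, against 19.7% of all genes. Elovl6, which lengthens palmitate to stearate, read 10.30, 10.28 and 10.19 in control, against 9.29, 9.45 and 9.62 in knockout and 10.22, 10.39 and 10.33 in rescue. The rescue arrays of Elovl6 overlapped the control arrays and the knockout arrays lay below both, with a change in knockout of -0.80 ± 0.11, or 1.75-fold lower (limma, adjusted p = 0.0031). Its other 2 probe sets gave -0.81 each. Elovl1, which lengthens saturated chains to very long ones, read 11.62, 11.38 and 11.45 in control, against 10.92, 10.92 and 10.96 in knockout and 11.35, 11.35 and 11.45 in rescue. The knockout arrays of Elovl1 lay close together and below all others, with a change of -0.55 ± 0.09, or 1.46-fold lower (adjusted p = 0.0077), and its other 3 probe sets gave -0.56 to -0.74. Elovl5, the elongase of polyunsaturated chains, had an estimate of -0.15 ± 0.30, with knockout arrays from 9.75 to 10.90.

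**Figure D3:**
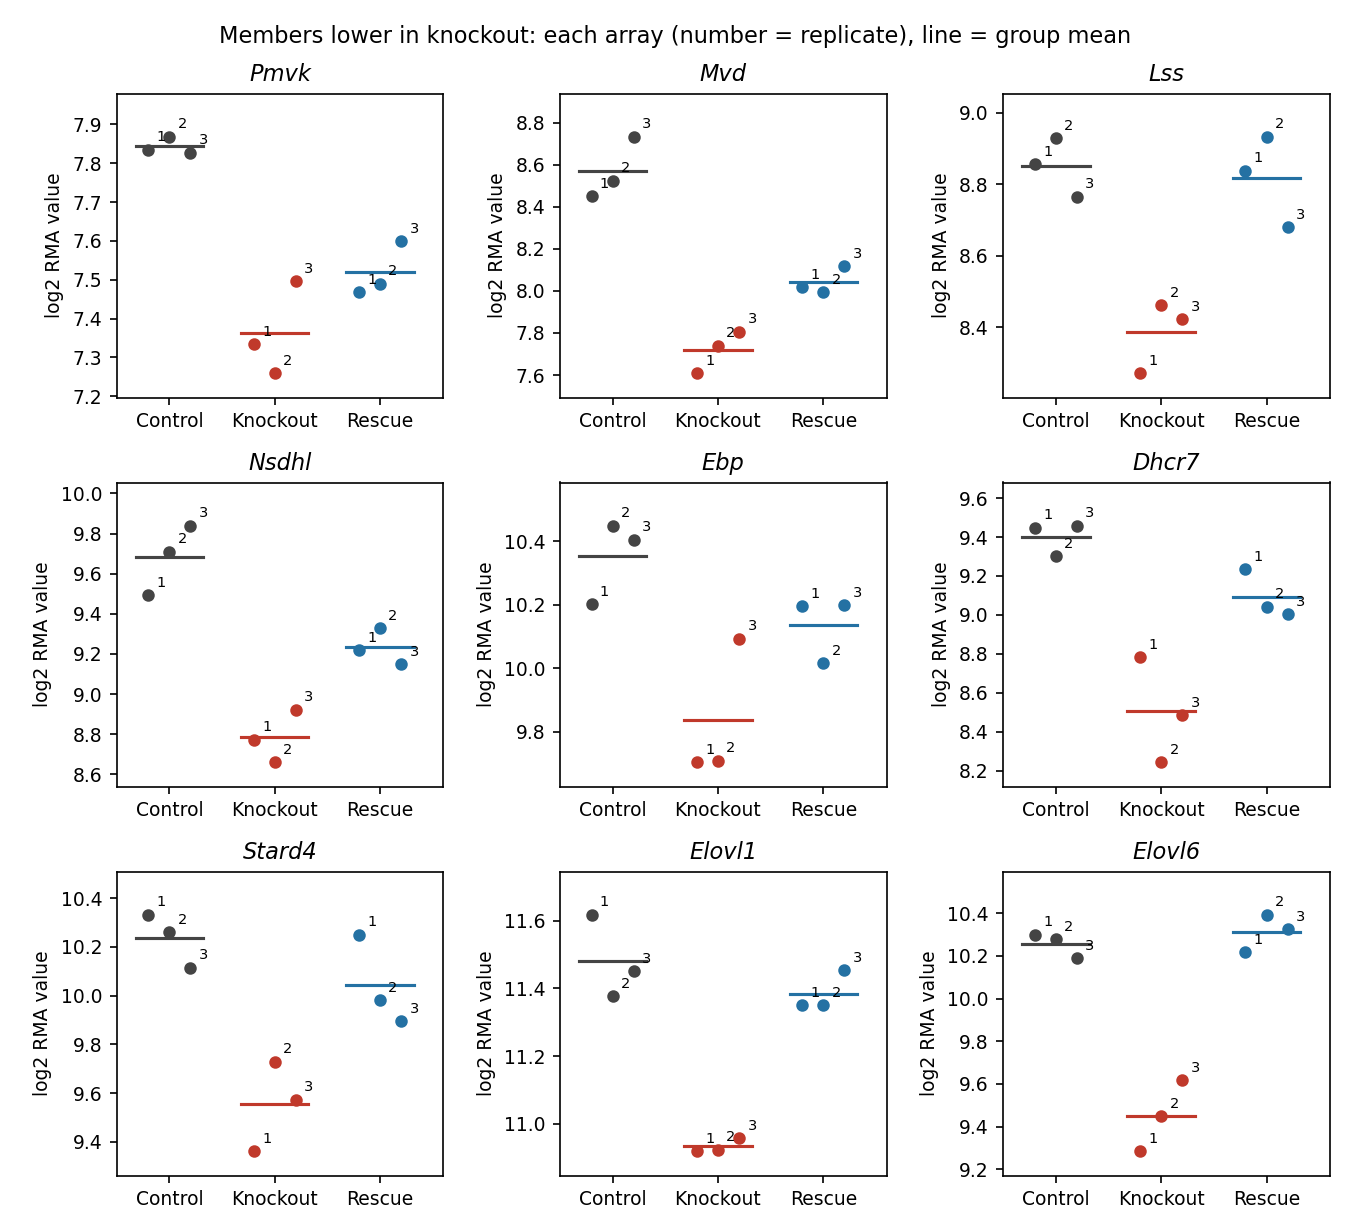
Log2 RMA values of the 9 genes lower in knockout, 1 point per array with its replicate number and a line at the group mean. The knockout arrays lie below the control arrays in every panel. The rescue arrays overlap the control arrays for Lss, Stard4, Elovl1 and Elovl6, and lie between the groups for Mvd, Nsdhl and Dhcr7. For Pmvk and Ebp they overlap the knockout arrays and lie below the control arrays.

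The genes that make palmitate did not pass in knockout. The estimates were -0.52 ± 0.18 (adjusted p = 0.093) for Acaca, the acetyl-CoA carboxylase of lipid synthesis, and -0.65 ± 0.26 (0.13) for the fatty acid synthase Fasn. Fasn read 9.31, 8.91 and 9.07 in control, against 8.71, 8.87 and 7.77 in knockout and 8.81, 8.69 and 8.79 in rescue. All arrays of knockout and rescue lay below the control arrays, and knockout replicate 3 lay far below the rest. Acly, which releases acetyl-CoA from citrate, and Me1, which supplies NADPH, had estimates of -0.13 ± 0.21 and -0.47 ± 0.26, and Acacb, the carboxylase tied to fatty acid oxidation, of 0.01 ± 0.27. The genes Acly, Acaca, Fasn, Elovl5, Scd2, Fads1 and Fads2, 7 of the 12, had their lowest value of all arrays in knockout replicate 3.

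The desaturases varied widely among the knockout arrays and among the rescue arrays, and less among the control arrays. Scd2, a stearoyl-CoA desaturase that puts in the first double bond, read 11.21, 11.31 and 11.32 in control, against 12.04, 10.54 and 8.56 in knockout and 12.39, 10.73 and 9.03 in rescue. The standard deviation of Scd2 was 0.06 among control, 1.74 among knockout and 1.68 among rescue arrays (log2, 3 arrays a group), and its change in knockout was -0.90 ± 0.96, with an interval of -3.08 to 1.28. Scd1, the related enzyme, read 8.21, 8.84 and 8.59 in control, against 7.48, 7.72 and 8.46 in knockout and 8.75, 8.17 and 6.01 in rescue. The array with the lowest Scd1 was thus rescue replicate 3, whereas that with the lowest Scd2 was knockout replicate 3.

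Fads2 and Fads1, the desaturases of polyunsaturated chains, also had a wider spread in knockout and rescue than in control. Fads2 read 8.47, 8.82 and 8.60 in control, against 7.64, 7.65 and 6.09 in knockout and 8.86, 7.59 and 8.04 in rescue. Its knockout arrays lay below the control arrays, and its change of -1.50 ± 0.45, the largest of the 35 estimates, lay just outside the threshold (limma, adjusted p = 0.0583). Of its other 2 probe sets, 1 passed when all probe sets were tested, with a change of -0.76 (adjusted p = 0.0398), and Fads2 was called lower in 5 of the 19 alternatives. Fads1 read 8.26, 8.72 and 8.42 in control, against 8.32, 7.82 and 6.27 in knockout and 8.19, 6.76 and 7.37 in rescue, and its change in knockout was -0.998 ± 0.522. Over the branch, the median standard deviation of a gene within a group was 0.11 for control, 0.50 for knockout and 0.43 for rescue arrays. It exceeded 0.5 for 0 of the 12 genes in control, 6 in knockout and 4 in rescue, and for 1 of the 18 sterol genes in knockout. Of 3 measured adipocyte markers, Adipoq and Lep had group means of 3.44 to 4.21 and Cidec, of lipid droplets, of 10.22 to 10.55. None of the 3 was called in any comparison.

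**Figure D4:**
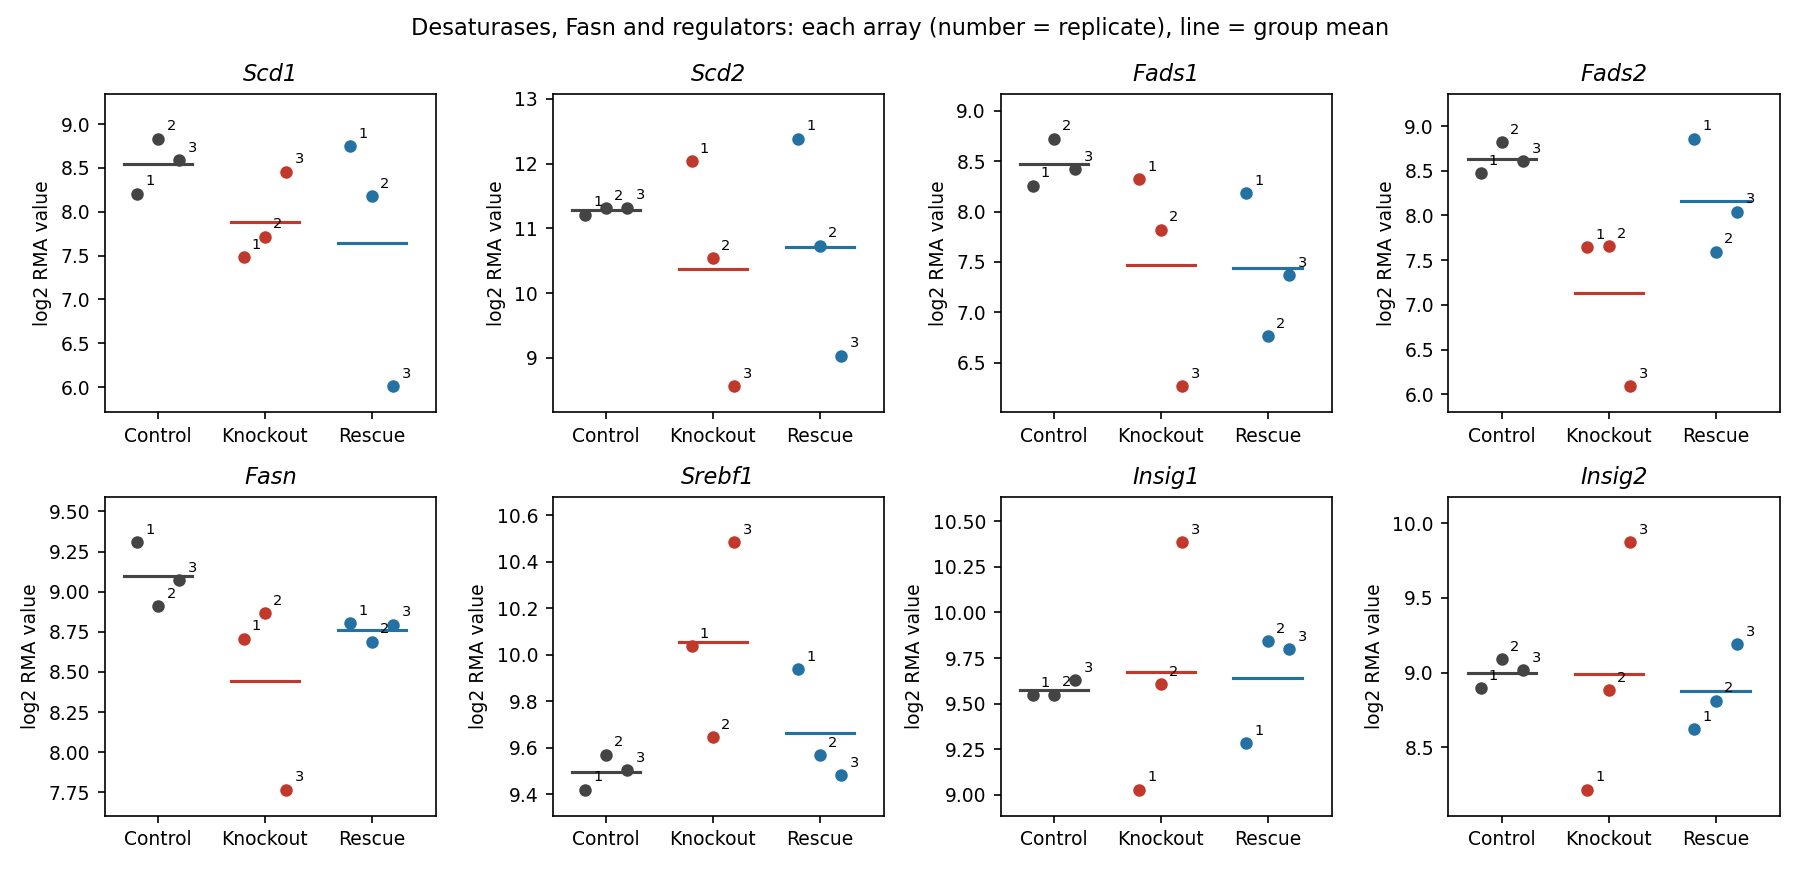
Log2 RMA values of the 4 desaturases, Fasn and 3 regulators, 1 point per array with its replicate number and a line at the group mean. Control arrays lie close together in every panel, while Scd2 runs from 8.56 to 12.04 in knockout and from 9.03 to 12.39 in rescue, and knockout replicate 3 is lowest for Scd2, Fads1, Fads2 and Fasn and highest for Srebf1, Insig1 and Insig2.

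The covariate for fibroblast signal changed the fatty acid count as well, while over all genes the share called in knockout was 11%, against 14.1% without it. With the covariate 5 genes of the branch were lower in knockout, Acaca, Elovl6, Fads1, Fads2 and Fasn, with changes of -2.52 (adjusted p = 0.0069) for Fads1 and -2.78 (0.0035) for Fads2, while the call for Elovl1 was lost (0.0521). Knockout replicate 3 was the knockout array with the least fibroblast signal and the lowest Fads1 and Fads2, and the calls with the covariate rest largely on that array. The part that RNA of other cells has in these results was not tested. Of the 7 members that use iron (Cyp51 through haem, and Msmo1, Sc5d, Scd1, Scd2, Fads1 and Fads2 through non-haem iron), 0 passed in limma's test in any comparison under the settings used throughout. Under the alternatives Fads2 was called between knockout and control in the 5 noted above, and with the covariate Fads1 was called there and Fads2 between rescue and knockout. Between knockout and control 1 of the 7 had an unadjusted p under 0.05 (Fads2), and the median of the 7 changes was -0.66. Between rescue and knockout 1 of the 7 had an unadjusted p under 0.05, and between rescue and control 0.

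None of the 5 regulators passed in knockout (limma; 1 had an unadjusted p under 0.05). Srebf1, which encodes the SREBP form best known for fatty acid genes, read 9.42, 9.57 and 9.50 in control, against 10.04, 9.65 and 10.48 in knockout and 9.94, 9.57 and 9.48 in rescue. Its knockout arrays lay above the control arrays, as they did for 12.7% of all genes, and the change was 0.56 ± 0.21 (adjusted p = 0.11), or 0.76 without knockout replicate 2, where it passed (0.0389). Srebf2, whose product drives the sterol genes above all, read 8.21, 8.19 and 8.21 in control, against 8.19, 8.15 and 8.05 in knockout and 8.08, 7.96 and 7.95 in rescue. Its change in knockout was -0.07 ± 0.09, with an interval of -0.27 to 0.12. Scap read 9.23, 9.14 and 9.23 in control, against 9.30, 9.43 and 9.30 in knockout and 9.01, 8.88 and 9.35 in rescue, a change in knockout of 0.14 ± 0.13.

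Insig1 and Insig2 had a wide spread in knockout around means close to those of control. Insig1 read 9.55, 9.55 and 9.63 in control, against 9.03, 9.61 and 10.39 in knockout and 9.28, 9.84 and 9.80 in rescue. Insig2 read 8.89, 9.09 and 9.01 in control, against 8.22, 8.88 and 9.87 in knockout and 8.62, 8.81 and 9.19 in rescue. Both were lowest of all arrays in knockout replicate 1 and highest in knockout replicate 3, so the changes of 0.10 ± 0.30 and -0.01 ± 0.36 average opposite deviations. Their sign depended on single arrays: without knockout replicate 3 the change of Insig1 was -0.26, and without knockout replicate 1 that of Insig2 was 0.38, with no call in either fit. With the fibroblast covariate both were called higher in knockout, Insig1 by 0.97 (adjusted p = 0.0329) and Insig2 by 1.01 (0.0485). These calls rest largely on knockout replicate 3, the knockout array with the least fibroblast signal.

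Between rescue and knockout, 2 of the 35 genes were higher and 0 lower, both in the fatty acid branch, while 2.31% of all genes were called (1.23% higher and 1.08% lower). Elovl6 was higher in rescue by 0.86 ± 0.11, or 1.82-fold (limma, adjusted p = 0.0092), and Elovl1 by 0.45 ± 0.09, or 1.37-fold (adjusted p = 0.0485). This comparison and that of knockout with control share the knockout arrays. The Elovl1 value lay close to the threshold, and its call was lost in 8 of the 9 fits that left out an array, all but the fit without knockout replicate 3, with adjusted p up to 0.163. The rise of Elovl6 remained in all 9 of these fits, and was lost when rescue and knockout were fitted without the control arrays (0.0768). In the fatty acid branch the median change was 0.08, and Fads2 had the largest estimate, 1.04 ± 0.45 (adjusted p = 0.26).

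None of the 18 sterol genes passed between rescue and knockout (limma; 6 had an unadjusted p under 0.05). The median change was 0.20, with 13 of 18 estimates above 0, against 0.04 over all genes. Dhcr7, Stard4, Nsdhl, Lss and Mvd, which were lower in knockout, had rescue arrays entirely above the knockout arrays, as had 10.6% of all genes (18.1% did not overlap in either direction). Their changes were 0.59 ± 0.14 (adjusted p = 0.078), 0.49 ± 0.13 (0.11), 0.45 ± 0.12 (0.10), 0.43 ± 0.10 (0.077) and 0.32 ± 0.11 (0.16). Hmgcs1 ran the other way: it read 10.82, 10.58 and 10.56 in rescue, all below the knockout arrays as for 7.5% of all genes, a change of -0.36 ± 0.12 (adjusted p = 0.17). The sterol count changed with single arrays: without knockout replicate 1 it was 1, Dhcr7, and without knockout replicate 3 it was 5, with Dhcr7, Ebp, Lss and Nsdhl higher and Hmgcs1 lower. Over all genes the share called was 1.12% and 15.4% in these fits, against 2.31% with all arrays. Of the regulators 0 passed (limma; 0 had an unadjusted p under 0.05), with changes between -0.39 for Srebf1 and -0.03 for Insig1.

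Between rescue and control 0 of the 35 genes passed, while 0.126% of all genes were called (0.055% higher and 0.0715% lower). In the sterol branch 5 genes had an unadjusted p under 0.05 in limma's test and in the fatty acid branch 0 did. This comparison shares its control arrays and its rescue arrays with the others. The estimates lay below 0 for 17 of 18 sterol genes and 11 of 12 fatty acid genes, with medians of -0.24 and -0.35, against -0.01 over all genes. Rescue arrays lay entirely below control arrays for 8 sterol and 4 fatty acid genes, as they did for 9.9% of all genes (16.6% did not overlap in either direction, 6.74% with rescue above). The sterol gene with the smallest p was Mvd, at -0.53 ± 0.11, with an interval of -0.77 to -0.28 (adjusted p = 0.16), followed by Nsdhl at -0.45 ± 0.12 (0.35). Mvd passed with the mean of its probe sets (0.0443) or with array weights (0.0209). Elovl6 and Lss had estimates near 0, 0.06 ± 0.11 with an interval of -0.19 to 0.30 and -0.03 ± 0.10 with an interval of -0.27 to 0.20. Over the 19 alternatives the estimate of Lss ran from -0.62 to 0.035, and over the fits without an array from -0.092 to 0.035. Fads1 had the lowest estimate, -1.03 ± 0.52. Of the regulators 0 passed, and Srebf2, with an unadjusted p of 0.0384, had rescue arrays below all control arrays at a change of -0.21 ± 0.09 (adjusted p = 0.69).

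By array, the median sterol gene lay at -0.08, -0.31 and -0.32 in rescue replicates 1, 2 and 3 relative to the control mean. The fatty acid branch lay at -0.21, -0.39 and -0.22 in the same arrays. The elongases Elovl1, Elovl5 and Elovl6 had a median of -0.56, -0.56 and -0.64 in the knockout arrays and of -0.04, -0.13 and -0.01 in the rescue arrays. The desaturases had a median of -0.57, -0.79 and -2.37 in the knockout arrays and of 0.22, -0.79 and -1.68 in the rescue arrays. The control arrays lay at -0.19, 0.22 and 0.01, closer together than the arrays of either other genotype.

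Around these genes stands a wider list of the pathway, of which 40 of 50 genes were measured: further steps of synthesis, uptake and export of cholesterol, activation of SREBP and the building of triglycerides. Between knockout and control 4 of the 40 were higher and 6 lower, with a median change of -0.18. Of all genes 5.29% were higher and 8.77% lower, with a median change of -0.04. Abca1, the pump that exports cholesterol from cells, had the largest change: it read 5.85, 6.31 and 6.68 in control, against 9.90, 9.07 and 9.00 in knockout and 8.44, 7.47 and 6.28 in rescue. All knockout arrays of Abca1 lay above all other arrays, and the change was 3.05 ± 0.50, or 8.26-fold higher (limma, adjusted p = 0.0068). Its size depended on the setting: over the 19 alternatives the change of Abca1 ran from 1.08 to 3.25, and over the fits without an array from 2.76 to 3.25. With the fibroblast covariate the change was 2.36 and did not pass (adjusted p = 0.0702).

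Of the 6 lower genes, Tmem97, a membrane protein that binds the lysosomal cholesterol transporter Npc1, read 8.43, 8.93 and 8.80 in control, against 7.57, 7.74 and 7.80 in knockout and 8.37, 8.44 and 8.66 in rescue. Its change in knockout was -1.02 ± 0.15 (adjusted p = 0.0042), and it was the single gene of the wider list called in rescue against knockout, at 0.78 ± 0.15 (limma, adjusted p = 0.0370). That second call was lost in 7 of the 9 fits without an array, all but those without control replicate 1 or knockout replicate 3, with adjusted p up to 0.131. Tecr and Hacd3, which complete each round of elongation after the elongases, were lower, with changes of -1.003 ± 0.163 (adjusted p = 0.0065) and -0.90 ± 0.21 (0.0275). The call for Hacd3 was lost without control replicate 1, 2 or 3 or knockout replicate 1 (adjusted p = 0.0950, 0.0942, 0.0704 and 0.0535). Mbtps2, a protease that releases SREBP from the membrane, had a change of -0.55 ± 0.13 (0.0278), and its call was lost in the same fits (0.0648, 0.0946, 0.106 and 0.0806). The other 5 genes called fell outside the rule for named genes and are named after their values were seen. Mlxipl, which encodes the carbohydrate-responsive factor ChREBP, was lower by 2.99-fold, with a change of -1.58 ± 0.39 (adjusted p = 0.0307), and Npc2, a lysosomal carrier of cholesterol, had a change of -0.64 ± 0.16 (0.0307). These calls were lost in 4 and 5 of the 9 fits without an array, with adjusted p up to 0.0973 and 0.106, and that of Mlxipl with the fibroblast covariate (0.265). Higher were Elovl7 (0.85), Mylip (0.90) and Hacd4, whose control mean of 5.70 lay among the dimmest 40% of genes, so that no size is given. The calls of Elovl7, Hacd4 and Mylip were lost in 6, 8 and 7 of the 9 fits without an array, with adjusted p up to 0.134, 0.146 and 0.143. Between rescue and control 0 of the 40 passed (limma; 6 had an unadjusted p under 0.05).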

How the data were processed

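RNA of 9 samples was measured on Affymetrix arrays, after cells had been released from intestinal pieces in 2 mM EDTA for 30 min and passed through a 70 µm mesh, per the labels' protocols. The authors deposited log2 values, 1 for each of 45101 probe sets and array, with 0 missing; the submitters' processing notes name RMA and Partek 6.5, and the part each played is not given in the sources used here. Array medians ran from 5.93 to 6.00, and 0 of 36 pairs of arrays were identical. No value was rescaled.

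Gene symbols came from the 2016 platform annotation, in which 34945 probe sets carried 1 symbol and were used, 13 control probe sets with 1 symbol were left out, 932 carried several and 9211 none. Each of 18193 genes took its brightest such probe set, and 26 of the 35 members had several. With limma 3.58.1 in R 4.3.3 (tables read with data.table, version 1.17.8), lmFit and eBayes gave a single fit of 3 group means over the 9 arrays. Tests were two-sided, adjusted over all genes by the method of Benjamini and Hochberg at 0.05, and tested on simulated data with 200 changed genes. Precision is limited by the number of arrays, with a median standard error of 0.147 over the changes of all genes. Samples of the same replicate number were checked for pairing: over 9 pairs of samples their deviations correlated with r from -0.22 to 0.40, 2 of them above 0.1, so the numbers were not taken to pair the arrays. Alternatives changed the probe set rule, scaling, centring, array weights, arrays fitted, spread model, dim genes (the dimmest 40%), a replicate block and a fibroblast covariate, and left out each array in turn. Motifs were searched in RefSeq promoter windows of GRCm38.p6.

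The members, the wider list and the marker lists were chosen with earlier results of these data known. Every member could be named, values in every array were given for called members and regulators and for others the text turns on, and up to 5 genes of the wider list with the smallest p were named per comparison.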

Additional observations from a re-analysis of the deposited data

How the results depend on the processing

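Mvd, Nsdhl, Dhcr7 and Elovl6 were lower in knockout than in control in all 19 alternatives. The 7 sterol genes lower in knockout became 4 with the fibroblast covariate and 3 to 7 when an array was left out. Other alternatives changed the set too: for example, Ebp and Lss were lost with quantile normalization, while Fdps and Tm7sf2 were gained with array weights. The 2 fatty acid genes became 1 without probe sets that may match other genes, 4 with array medians subtracted, 4 with array weights, 5 with the covariate, and 2 to 3 without an array. Fads2 was also gained with the mean of probe sets and without dim genes. Array weights called 6395 genes in all between knockout and control (35.2%), against 2559 (14.1%). Subtracting array medians moved the median of all genes there to -0.12. Between rescue and knockout, the count of 0 sterol genes became 4 with array weights (Dhcr7, Lss and Nsdhl higher, Hmgcs1 lower) and 0 to 5 without an array. Over all genes the share called in this comparison was 13.5% with array weights and 5.45% with the fibroblast covariate, against 2.31%. The 2 fatty acid genes became 1 without ambiguous probe sets, with quantile normalization, with array medians subtracted and with a trended, robust spread, 0 with only the groups compared, and 1 to 2 without an array; with the covariate the 2 were Elovl6 and Fads2. With replicate number as a block the count was 1, and the block changed no other count of members. Between rescue and control the 0 sterol genes became 1 (Mvd) with the mean of probe sets and 2 (Mvd and Sqle) with array weights. Over all genes 0.137% and 1.95% were called in these fits, against 0.126%. The causes were not tested.

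Among the called genes and the regulators, no change of sign came with a call except that of Insig2 with the covariate. In knockout against control Insig1 (0.10) was -0.032 with array weights and ran from -0.26 to 0.42 without an array. Insig2 (-0.01) was 0.0045 with the mean of probe sets, 0.060 with quantile normalization, 1.01 with the covariate (adjusted p = 0.0485), and -0.45 to 0.38 without an array. Srebf2 (-0.07) was 0.0012 with quantile normalization. In rescue against control the mean of probe sets gave -0.033 for Elovl6 and 0.016 for Scap. Insig1 ran from -0.032 to 0.25 without an array. Insig2 was 0.18 with the covariate and -0.28 to 0.0016 without an array. Lss was 0.00079 with quantile normalization, 0.022 with array weights and -0.092 to 0.035 without an array. In rescue against knockout Insig1 was 0.027 with array medians subtracted, 0.090 with array weights and -0.35 to 0.32 without an array. Insig2 was 0.0071 with array weights and -0.50 to 0.32 without an array. Of the 21 other members, 9, 15 and 7 changed sign in some alternative in knockout against control, rescue against knockout and rescue against control, with no call where the sign changed. These were not all small estimates: Scd2 (-0.90) and Me1 (-0.47) changed sign in 1 alternative in knockout against control, as did Scd2 (-0.56) in rescue against control and Msmo1 (-0.41) in rescue against knockout. In some alternative 8, 2 and 1 of the 21 were called.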
